A study of Mus musculus with 17 samples.

Results

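The genes described here are those of mitosis and chromosome segregation, 50 genes listed by name for their known part in the division of the chromosomes and of the cell. Of these, 46 were measured, among 15780 genes in all. Cks2, Stmn1 and Ncapg had no probe set under their symbol. Ccnb1, the cyclin B1 gene, has a probe set keyed by its Entrez number, to which the annotation used gives no symbol, and members were matched by symbol. These 4 genes were not analysed here. The RNA came from F4/80hi cells, which carry much of a surface protein of macrophages. They were taken from kidneys of NZB/W mice, hybrids that develop lupus nephritis by themselves. The prenephritic group, titled young, held 6 arrays from mice of 8 to 16 weeks. The nephritic group, titled sick, held 7 arrays from mice that had been proteinuric for 2 to 6 weeks and had not reached terminal renal failure. The remission group held 4 arrays from mice 3 to 4 weeks into complete remission, which had been induced with cyclophosphamide (1 dose), a cytotoxic alkylating drug, CTLA4Ig (6 doses), which blocks costimulation of T cells, and anti-CD154, an antibody to the ligand of CD40. The labels give no age for the nephritic and remission mice, so age and disease cannot be told apart, nor can remission and the drugs that brought it about. They do not say whether an array came from 1 mouse or from several, and the p-values reflect no more than the spread among these arrays, which may be technical. The arrays measured RNA of the whole sorted pool, in which fewer dividing cells and less mitotic RNA per dividing cell cannot be told apart.

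Mitosis is driven by cyclin-dependent kinase 1 with its cyclins, and by the Polo and Aurora kinases. Condensin folds the chromosomes, kinetochores tie them to spindle microtubules, a checkpoint holds the cell until every chromosome is attached, and the anaphase promoting complex then marks cyclin B and securin for destruction so that the chromosomes part and the cell divides. The genes for these proteins are switched on together late in the cell cycle, by B-MYB and FOXM1 with the MuvB complex, and are kept off in resting cells by the same MuvB core in the DREAM complex. Tissue macrophages of the kidney can renew themselves by local division, as well as being replaced from blood monocytes.

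MuvB is known to bind the cell cycle genes homology region (CHR), for which the letters TTTGAA were searched, and the factor NF-Y binds the box CCAAT, often found upstream of it. Both were searched on both strands in RefSeq promoter windows of the mouse build GRCm38.p6, 250 bases before to 50 after the start of each gene, which were found for 37 of the 46 measured genes. The CHR letters were present in 28 of the 37, against 20.2% of all 27025 genes with a window and 15.3% of the 12596 of them that the arrays tested. The CCAAT letters were also present in 28 of the 37, against 41.1% of all genes, and both were present in 25, against 7.97%. In the members' windows, matches of the 2 motifs shared bases at 1 place. A match describes the letters and is not shown to be a bound site.

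Windows of 140 bases, 120 before the start and 20 from it on, are shown for 6 genes that rose in nephritis, to set promoters that hold both motifs beside promoters that hold neither. Capitals mark the CHR letters TTTGAA and the box CCAAT or their reverse complements (TTCAAA and ATTGG).
Ccnb2 promoter, chr9:70421535-70421674, reverse strand, cyclin B2: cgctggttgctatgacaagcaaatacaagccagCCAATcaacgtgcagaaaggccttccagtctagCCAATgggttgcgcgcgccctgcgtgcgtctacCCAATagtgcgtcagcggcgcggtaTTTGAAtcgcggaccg
Cdc20 promoter, chr4:118437324-118437463, reverse strand, activator of the anaphase promoting complex: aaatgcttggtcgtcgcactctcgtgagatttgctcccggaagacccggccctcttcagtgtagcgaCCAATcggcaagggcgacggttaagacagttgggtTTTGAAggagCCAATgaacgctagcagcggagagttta
Cdk1 promoter, chr10:69352893-69353032, reverse strand, the mitotic kinase: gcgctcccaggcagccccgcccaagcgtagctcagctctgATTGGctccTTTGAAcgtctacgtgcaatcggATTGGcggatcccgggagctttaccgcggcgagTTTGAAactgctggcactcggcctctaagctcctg
Racgap1 promoter, chr15:99651637-99651776, reverse strand, cytokinesis: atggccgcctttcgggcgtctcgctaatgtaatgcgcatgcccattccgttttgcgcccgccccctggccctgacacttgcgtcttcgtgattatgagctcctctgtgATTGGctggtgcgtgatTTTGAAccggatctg
Birc5 promoter, chr11:117849117-117849256, forward strand, survivin: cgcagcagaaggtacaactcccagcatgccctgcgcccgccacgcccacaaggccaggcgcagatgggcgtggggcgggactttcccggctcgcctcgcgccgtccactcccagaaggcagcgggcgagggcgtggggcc
Melk promoter, chr4:44300797-44300936, forward strand, a mitotic kinase: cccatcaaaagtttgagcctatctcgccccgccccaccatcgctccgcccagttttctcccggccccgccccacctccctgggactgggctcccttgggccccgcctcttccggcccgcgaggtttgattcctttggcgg

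In these stretches the CHR letters began at position −18 from the start of Cdc20, at positions −71 and −15 in Cdk1, and just past the start in Ccnb2 (position 5) and Racgap1 (position 6), where the first transcribed base is position 1. Birc5 and Melk had neither motif in the shown stretch or in the whole window, and both rose in nephritis. Anln, Ect2, Spc25 and Smc2 held the CHR letters and did not pass the test in that comparison. Of the 26 members with a window that rose in nephritis 20 held the CHR letters (76.9%), and of the 11 that did not pass 8 held them (72.7%). Among the genes outside the list, 35 of 83 other mitosis genes with a window held the CHR letters and 3 of 20 genes of DNA synthesis did.

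**Figure D1:**
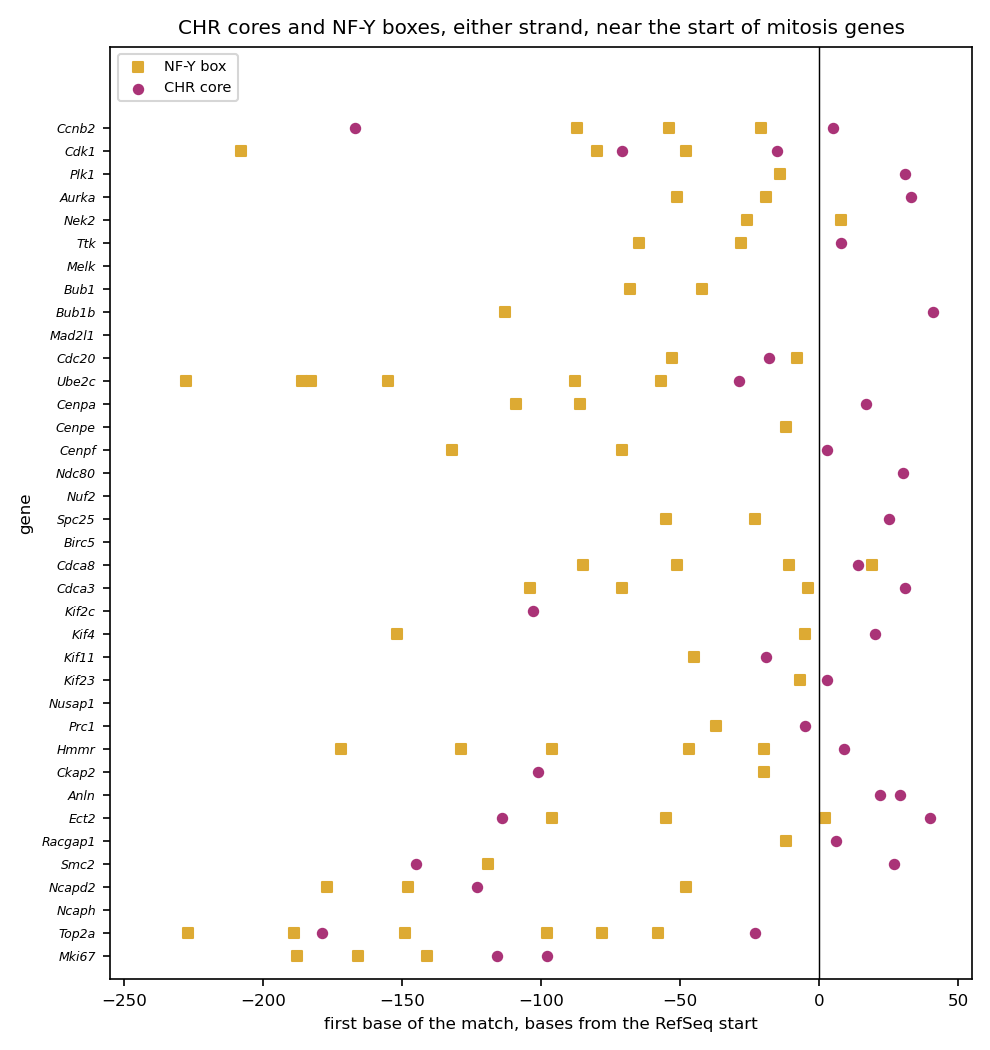
Positions of CHR cores (circles) and NF-Y boxes (squares), either strand, in the RefSeq windows of the 37 members that have one. The x axis gives the distance in bases from the start of the gene, and most CHR cores lie within 50 bases of it; 28 genes hold a CHR core and 28 an NF-Y box.

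Before the comparisons, the cells were checked against macrophage markers. All 10 markers on the list were measured, and the group means of Adgre1, the gene of that surface protein, were 13.1, 13.2 and 13.2 in prenephritic, nephritic and remission samples. Of the 10, Mertk alone passed the test, higher in nephritis (1.22 ± 0.21, adjusted p = 0.0012) and lower in remission. The mean log2 level of the 10 ran from 12.3 to 12.6 on the prenephritic, 12.5 to 12.7 on the nephritic and 12.4 to 12.7 on the remission arrays. The values are log2 levels made by RMA, which brings all arrays close to a common distribution, and all differences below are on this log2 scale, with the standard error of the limma fit over all genes and 17 arrays.

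Nephritic against prenephritic samples show how far mitotic transcripts differ once nephritis is established. They were higher across the list: 45 of 46 members had a higher nephritic mean, against 7209 of all 15780 genes. The median difference was 0.62, against −0.02 over all genes. The rise passed the test (limma, adjusted p below 0.05 over all genes) in 32 members and no member fell, while 6.74% of all genes rose and 5.32% fell. The differences were moderate. The 32 ran from 0.43 for Aurka to 1.13 for Cdca3, which is 1.35-fold to 2.19-fold. At least 2-fold higher were 4 of them, Cdca3, Ccnb2, Ube2c and Birc5, against 189 of all 15780 genes. Every nephritic array lay above every prenephritic one in 2 members, Ccnb2 and Kif2c, against 3.07% of all genes. Prenephritic replicate 1 stood apart from its group: 43 of the 46 members lay above their own median over all arrays there, and 1 to 13 did on the other 5 prenephritic arrays.

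The number of members that passed moved with single arrays. It was 20 without prenephritic replicate 3, without nephritic replicate 5 or without nephritic replicate 7, and 37 without prenephritic replicate 1, and 19 members passed whichever single array was left out. It was also 20 without prenephritic replicate 5 and nephritic replicate 6 together, and 16 without nephritic replicate 3, prenephritic replicate 3 and remission replicate 2, the 3 arrays whose tubule score lay farthest from the median of all 17 arrays, while the median difference stayed at 0.66 and 0.52. The share of all genes was not computed for these fits, so a change among the members cannot be told from one over all genes. With a score of B and plasma cell genes as a covariate, 1 member passed (0.634% of all genes), as given with those genes.

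Remission against nephritic samples show the state after treatment. Here 41 of 46 members were lower (10.0% of all genes were) and no member was higher (3.27% of all genes). With a score of B and plasma cell genes as a covariate 20 were lower, against 1.38% of all genes in that fit. The median difference was −1.08, against −0.03 over all genes. At least 2-fold lower were 29 of the 41, against 285 of all 15780 genes. Ccnb2 (−1.56), Cdca3 (−1.52) and Birc5 (−1.49) stood at the low end. In 37 members every remission array lay below every nephritic array, against 6.95% of all genes, and in 0 members every remission array lay above (1.70% of all genes). The members that did not pass were Mad2l1, Spc25, Anln, Ect2 and Smc2, and the 41 included all 32 that had risen in nephritis. These comparisons share the nephritic arrays, so the second is not independent of the first.

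Remission against prenephritic samples ask whether the levels were back to those of young mice before disease. The remission mean was below the prenephritic mean in 45 of 46 members. Of all 15780 genes, 5769 had a remission mean above the prenephritic one, so most genes were lower as well. The median difference was −0.47 in the members against −0.05 over all genes, but no member passed the limma test. At an unadjusted p below 0.05, 29 members were lower (63.0%, against 12.3% of all genes) and 0 were higher. Over all 15780 genes only 1 gene passed, lower in remission (0.00634% of genes), and none higher. In 0 members every remission array lay above every prenephritic array (0.393% of all genes). In 12 members every remission array lay below, against 1.93% of all genes: Plk1, Aurka, Aurkb, Melk, Cenpa, Ndc80, Cdca8, Kif23, Racgap1, Ncapd2, Ncaph and Foxm1. With arrays weighted by their quality, 5 members passed, namely Plk1, Aurka, Aurkb, Cenpa and Racgap1, with adjusted p between 0.033 and 0.049, and 1.83% of all genes were lower in that fit. In 44 of the 46 members the group means ran from remission, the lowest, through prenephritic to nephritic. The share of all genes with that order was not computed.

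**Figure D2:**
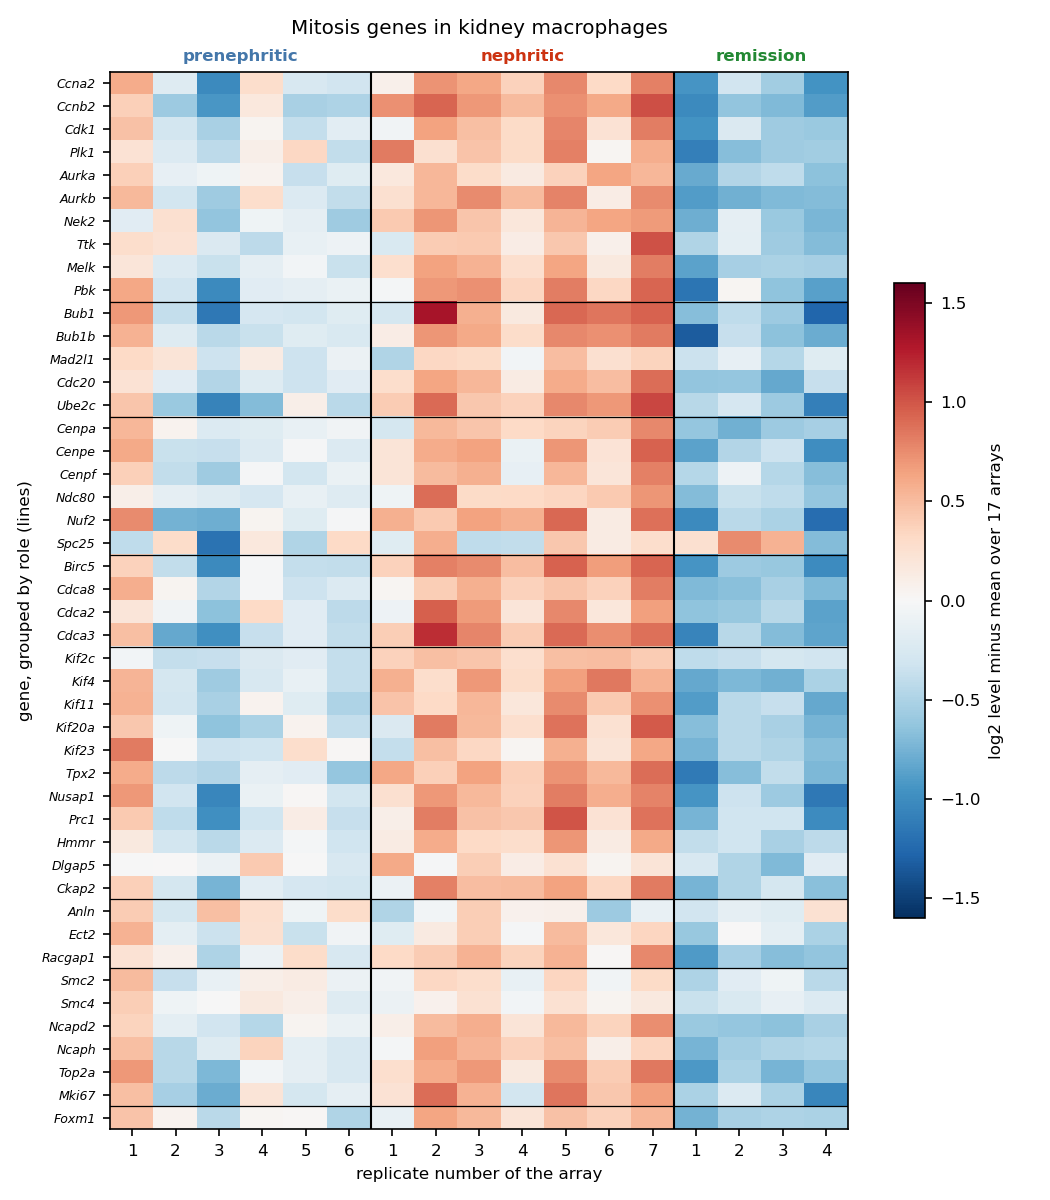
Log2 level of each measured member (rows, grouped by role) on each array (columns, by group and replicate number), minus the gene's mean over the 17 arrays. Nephritic arrays are mostly above and remission arrays mostly below the mean, and prenephritic replicate 1 lies above the other prenephritic arrays for most genes.

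The cyclins and mitotic kinases rose in 9 of 10 measured members in nephritis and were lower in 10 of 10 in remission. Ccnb2 encodes cyclin B2, a partner of cyclin-dependent kinase 1. Its log2 level had a lowest, median and highest value of 6.96, 7.38 and 8.27 on the prenephritic and of 8.40, 8.61 and 8.92 on the nephritic arrays, and stood at 6.87, 7.26, 7.19 and 7.00 on remission arrays 1 to 4. The nephritic arrays lay above all others, and the remission arrays within the range of the prenephritic ones or just below it. It was 2.11-fold higher in nephritis (1.08 ± 0.17, adjusted p = 0.00064) and then lower by 1.56 ± 0.19 in remission (adjusted p = 0.00016).

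Cdk1, the kinase itself, ran from 8.54 through a median of 8.83 to 9.53 on the prenephritic arrays, from 9.002 through 9.54 to 9.88 on the nephritic ones, and stood at 8.10, 8.83, 8.49 and 8.47 in remission. Prenephritic replicates 1 and 4 reached the nephritic range, and nephritic replicate 1 was the lowest of its group. The rise was 0.60 ± 0.17 (adjusted p = 0.031) and the later difference −1.05 ± 0.19 (adjusted p = 0.0022). Cyclin A2, encoded by Ccna2 and needed for S phase and entry into mitosis, rose by 0.68 ± 0.21 and was lower by 1.22 ± 0.24 in remission.

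Aurka, the kinase of the spindle poles, had values of 7.50, 7.77 and 8.24 (lowest, median, highest) on prenephritic and of 8.00, 8.24 and 8.49 on nephritic arrays, and 7.06, 7.39, 7.46 and 7.21 in remission. All 4 remission arrays lay below both other groups. Its difference was 0.43 ± 0.11 in nephritis (adjusted p = 0.020), −0.97 ± 0.13 from nephritis to remission (adjusted p = 0.00022) and −0.53 ± 0.13 from prenephritic to remission (adjusted p = 0.14, unadjusted p = 0.00094). The Polo kinase gene Plk1 and Aurkb, the kinase of the chromosomal passenger complex, rose by 0.53 ± 0.16 and 0.64 ± 0.16 and differed between remission and prenephritic arrays by −0.66 ± 0.18 and −0.65 ± 0.19 (adjusted p = 0.16 and 0.17).

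Nek2, a centrosome kinase gene, rose by 0.74 ± 0.14, Melk by 0.63 ± 0.12 and Pbk by 0.74 ± 0.23, the last close to the threshold (adjusted p = 0.0499). The remission mean of Nek2 (4.73) lay below 4.99, the lower quartile of all values. Array signals that low can lie near background, so its difference of −1.08 may be compressed, which was not tested. Ttk, which encodes the checkpoint kinase MPS1, was the member of this role that did not pass in nephritis. It ran from 6.57 through 6.88 to 7.27 on prenephritic and from 6.74 through 7.39 to 8.01 on nephritic arrays, with nephritic replicate 1 lowest and replicate 7 highest, and stood at 6.50, 6.83, 6.41 and 6.29 in remission. The prenephritic and nephritic arrays overlapped widely (0.38 ± 0.17, adjusted p = 0.17), and the remission level was lower than the nephritic by 0.80 ± 0.19 (adjusted p = 0.012). The remaining kinase and cyclin genes differed between nephritis and remission by −1.19 ± 0.18 for Plk1, −1.29 ± 0.18 for Aurkb, −1.09 ± 0.13 for Melk and −1.21 ± 0.26 for Pbk (adjusted p from 0.00015 to 0.0067). The remission minus prenephritic differences of kinase and cyclin genes, of which none passed, were −0.54 ± 0.24 for Ccna2, −0.48 ± 0.20 for Ccnb2, −0.45 ± 0.20 for Cdk1, −0.34 ± 0.16 for Nek2, −0.42 ± 0.20 for Ttk, −0.45 ± 0.14 for Melk and −0.47 ± 0.27 for Pbk (adjusted p from 0.17 to 0.34).

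Of the 5 genes of the spindle checkpoint and the anaphase promoting complex, 4 rose in nephritis and the same number were lower in remission. Cdc20, the activator that the checkpoint restrains, had values of 6.78, 7.06 and 7.48 (lowest, median, highest) on prenephritic and 7.39, 7.79 and 8.14 on nephritic arrays, and 6.63, 6.64, 6.44 and 6.88 in remission. The prenephritic and nephritic arrays met only where prenephritic replicate 1 exceeded nephritic replicate 4. It rose by 0.70 ± 0.12 (adjusted p = 0.0013) and was lower by 1.12 ± 0.14 in remission (adjusted p = 0.00015). Ube2c, the ubiquitin-conjugating enzyme gene of the complex, rose 2.05-fold (1.04 ± 0.21, adjusted p = 0.0040), and its remission mean was close to the prenephritic one (−0.23 ± 0.25, adjusted p = 0.63).

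Bub1b, which encodes the checkpoint protein BUBR1, ran from 7.14 through 7.35 to 8.13 on prenephritic and from 7.69 through 8.29 to 8.41 on nephritic arrays, and stood at 6.24, 7.20, 6.92 and 6.78 in remission. Prenephritic replicate 1 was far above the other 5 prenephritic arrays, and remission replicate 1 was the lowest of all. The rise was 0.73 ± 0.17 (adjusted p = 0.012). Its partner kinase gene Bub1 rose by 0.90 ± 0.27 (adjusted p = 0.039). Mad2l1, which encodes the inhibitor of CDC20 in the checkpoint, passed in neither comparison. Its values were 8.56, 8.92 and 9.22 on prenephritic and 8.41, 9.21 and 9.40 on nephritic arrays, and 8.55, 8.76, 8.44 and 8.71 in remission, so that all groups overlapped (0.19 ± 0.15 and −0.46 ± 0.17, adjusted p = 0.48 and 0.080). The remaining checkpoint genes differed between nephritis and remission by −1.37 ± 0.31 for Bub1, −1.37 ± 0.20 for Bub1b and −1.26 ± 0.24 for Ube2c (adjusted p from 0.00037 to 0.0077). Of the checkpoint genes, none passed between remission and prenephritic arrays, with differences of −0.47 ± 0.32 for Bub1, −0.64 ± 0.20 for Bub1b, −0.27 ± 0.17 for Mad2l1 and −0.42 ± 0.14 for Cdc20 (adjusted p from 0.18 to 0.41).

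**Figure D3:**
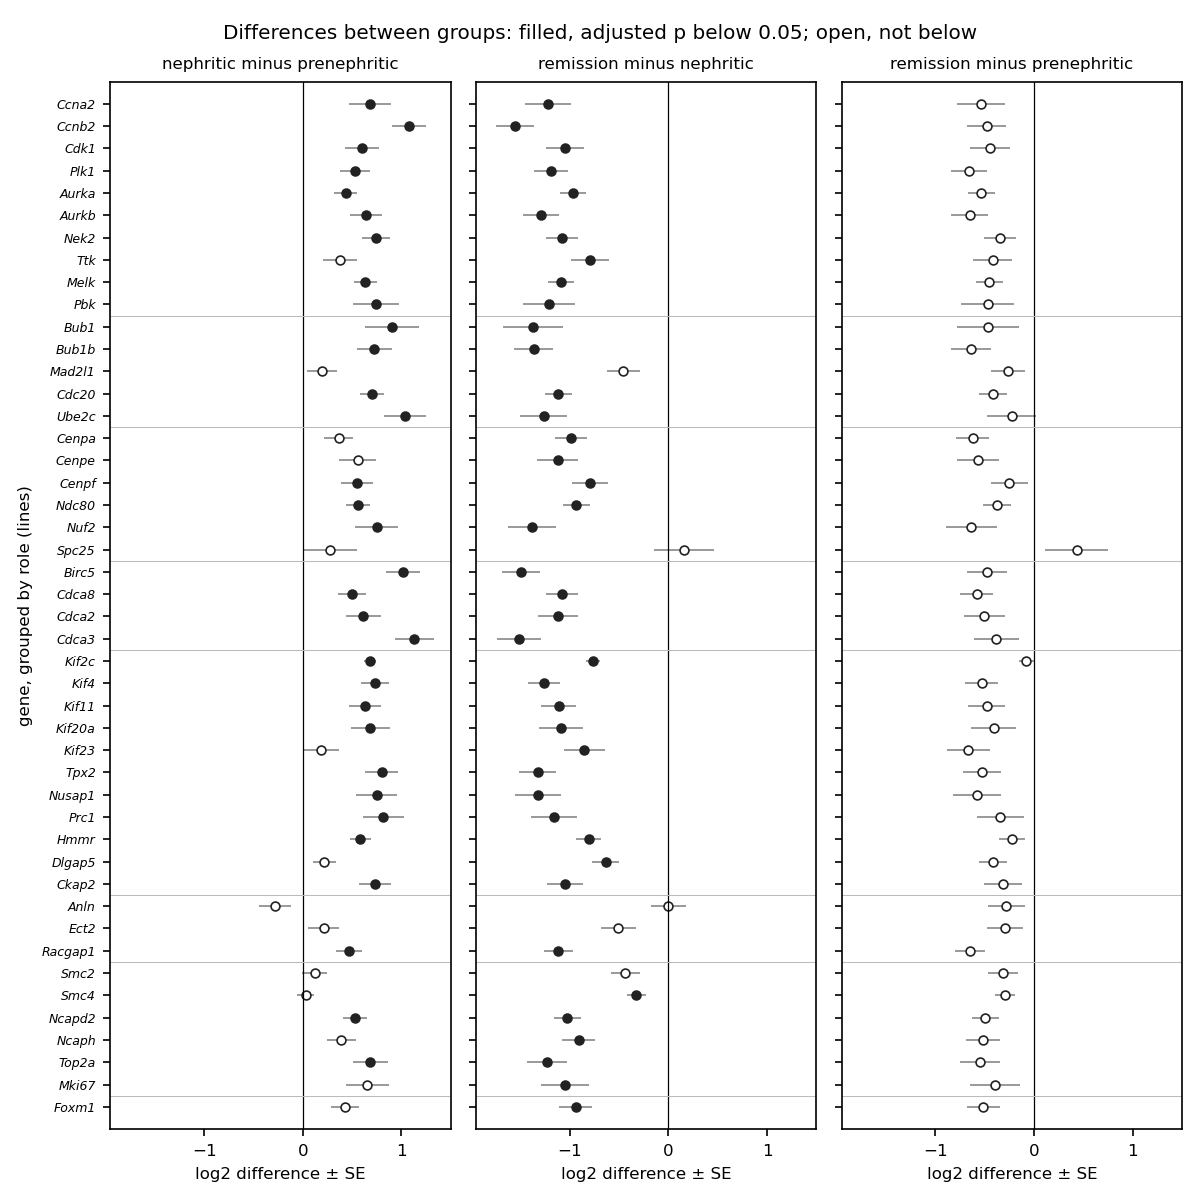
Log2 difference ± standard error of each member in the comparisons, grouped by role; filled points passed the limma test (adjusted p below 0.05 over all genes) and open points did not. Filled points number 32, 41 and 0 from left to right.

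Kinetochore and centromere genes rose in 3 of 6 members, and 5 of 6 were lower in remission. Ndc80, which encodes the subunit that grips microtubules, had values of 7.00, 7.09 and 7.37 on prenephritic and 7.19, 7.61 and 8.16 on nephritic arrays, and 6.57, 6.91, 6.87 and 6.65 in remission. All 4 remission arrays lay below both other groups. It rose by 0.56 ± 0.12 (adjusted p = 0.0065) and was lower by 0.93 ± 0.14 in remission (adjusted p = 0.00047). Nuf2, its partner in the same complex, rose by 0.75 ± 0.22, and Cenpf by 0.55 ± 0.16, whose remission mean (4.89) lay below the lower quartile.

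Spc25 encodes another subunit of the NDC80 complex and passed in no comparison. It ran from 7.04 through 8.11 to 8.53 on prenephritic and from 7.81 through 8.35 to 8.80 on nephritic arrays, and stood at 8.48, 8.97, 8.77 and 7.52 in remission. Remission held the highest array for this gene, and it was the only member whose remission mean was above the nephritic one (0.16 ± 0.31, adjusted p = 0.79). Cenpa, the centromeric histone H3 variant gene, was 0.36 ± 0.14 higher in nephritis (adjusted p = 0.12) with values of 7.89, 8.02 and 8.64 on prenephritic and 7.83, 8.51 and 8.88 on nephritic arrays. In remission it stood at 7.50, 7.33, 7.52 and 7.58, below every other array (−0.98 ± 0.16 against nephritic, adjusted p = 0.00094, and −0.62 ± 0.17 against prenephritic, adjusted p = 0.15). Cenpe, a kinetochore motor gene, was 0.56 ± 0.18 higher in nephritis without passing (adjusted p = 0.061). The remaining kinetochore genes differed between nephritis and remission by −1.12 ± 0.21 for Cenpe, −0.80 ± 0.18 for Cenpf and −1.38 ± 0.25 for Nuf2 (adjusted p from 0.0018 to 0.0087). The remission minus prenephritic differences of kinetochore genes, of which none passed, were −0.56 ± 0.21 for Cenpe, −0.25 ± 0.19 for Cenpf, −0.38 ± 0.14 for Ndc80, −0.63 ± 0.25 for Nuf2 and 0.43 ± 0.32 for Spc25 (adjusted p from 0.22 to 0.45).

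The chromosomal passenger complex corrects wrong attachments. All 4 members of this role, of which Birc5 and Cdca8 encode parts of the complex, rose in nephritis and were lower in remission. Incenp, a gene of the complex outside the list, was 0.21 ± 0.11 higher in nephritis without passing (adjusted p = 0.25). It was lower in remission than in nephritis by 0.70 ± 0.13 (adjusted p = 0.0018). Birc5, which encodes survivin, had values of 8.95, 9.59 and 10.35 (lowest, median, highest) on prenephritic and of 10.34, 10.73 and 10.91 on nephritic arrays, and 9.03, 9.39, 9.37 and 8.97 in remission. The prenephritic and nephritic groups met only where prenephritic replicate 1 came level with nephritic replicate 1. It was 2.02-fold higher in nephritis (1.01 ± 0.17, adjusted p = 0.00099) and lower by 1.49 ± 0.19 in remission (adjusted p = 0.00019).

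Cdca3, which encodes a factor for mitotic entry, showed the greatest rise of the 46 members, from a mean of 8.37 ± 0.52 (SD, n = 6) to 9.50 ± 0.28 (SD, n = 7), and 7.98 ± 0.26 (SD, n = 4) in remission. The other members were Cdca8, the borealin gene of the complex, and Cdca2, whose product recruits a phosphatase to chromatin at anaphase. Cdca8 ran from 7.28 through 7.62 to 8.32 on prenephritic and from 7.78 through 8.14 to 8.56 on nephritic arrays, and stood at 7.03, 7.07, 7.22 and 7.04 in remission, below all other arrays. Cdca2 ran from 5.80 through 6.34 to 6.78 and from 6.37 through 7.12 to 7.41, and stood at 5.82, 5.85, 6.01 and 5.60. The prenephritic and nephritic arrays overlapped for both genes, with rises of 0.50 ± 0.14 and 0.61 ± 0.18 (adjusted p = 0.032 and 0.034). The remaining genes of this role differed between nephritis and remission by −1.08 ± 0.16 for Cdca8, −1.12 ± 0.20 for Cdca2 and −1.52 ± 0.22 for Cdca3 (adjusted p from 0.00044 to 0.0019). Of the genes of this role, none passed between remission and prenephritic arrays, with differences of −0.48 ± 0.20 for Birc5, −0.58 ± 0.17 for Cdca8, −0.50 ± 0.21 for Cdca2 and −0.38 ± 0.23 for Cdca3 (adjusted p from 0.17 to 0.35).

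Kinesins and spindle genes rose in 9 of 11 members and were lower in remission in 11 of 11. Kif2c, which encodes MCAK, a kinesin that takes microtubules apart at their ends, gave the firmest difference of the list. Its values were 6.19, 6.27 and 6.52 on prenephritic and 6.83, 7.01 and 7.06 on nephritic arrays, and 6.16, 6.19, 6.28 and 6.27 in remission. The nephritic arrays stood apart from all others, and the remission arrays fell within or next to the prenephritic range. The rise was 0.68 ± 0.06 (1.61-fold, adjusted p = 5.8e-06), the later difference −0.76 ± 0.07 (adjusted p = 1.3e-05) and that between remission and prenephritic −0.08 ± 0.07 (adjusted p = 0.57).

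Kif4, a chromosome-bound kinesin gene, ran from 5.58 through 5.87 to 6.68 on prenephritic and from 6.42 through 6.71 to 6.98 on nephritic arrays, and stood at 5.32, 5.42, 5.37 and 5.63 in remission. Prenephritic replicate 1 was the 1 array of its group inside the nephritic range (0.73 ± 0.14, adjusted p = 0.0031). The other kinesins of the spindle, Kif11 and Kif20a, rose by 0.63 ± 0.16 and 0.68 ± 0.20. Among spindle proteins, Prc1, which bundles microtubules at the midzone, rose by 0.82 ± 0.21, Tpx2, which activates Aurora A, by 0.80 ± 0.17, Nusap1 by 0.75 ± 0.21, Ckap2 by 0.73 ± 0.16 and Hmmr by 0.58 ± 0.11. Their adjusted p lay between 0.0022 and 0.032.

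Kif23, which encodes the midzone kinesin MKLP1, did not pass in nephritis. It had values of 6.99, 7.33 and 8.16 on prenephritic and of 6.94, 7.66 and 7.94 on nephritic arrays, and 6.57, 6.89, 6.85 and 6.64 in remission. The prenephritic and nephritic arrays covered much the same range (0.19 ± 0.19, adjusted p = 0.60), while every remission array was below both (−0.85 ± 0.21 against nephritic, adjusted p = 0.013). Dlgap5, a spindle assembly gene, was close in prenephritic and nephritic arrays (0.22 ± 0.12, adjusted p = 0.27) and lower in remission by 0.64 ± 0.13 (adjusted p = 0.0056). The remaining kinesin and spindle genes differed between nephritis and remission by −1.26 ± 0.16 for Kif4, −1.11 ± 0.18 for Kif11, −1.09 ± 0.22 for Kif20a, −1.32 ± 0.19 for Tpx2, −1.32 ± 0.23 for Nusap1, −1.16 ± 0.23 for Prc1, −0.81 ± 0.12 for Hmmr and −1.05 ± 0.19 for Ckap2 (adjusted p from 0.00019 to 0.0043). The remission minus prenephritic differences of kinesin and spindle genes, of which none passed, were −0.53 ± 0.17 for Kif4, −0.48 ± 0.19 for Kif11, −0.41 ± 0.23 for Kif20a, −0.67 ± 0.21 for Kif23, −0.52 ± 0.19 for Tpx2, −0.58 ± 0.24 for Nusap1, −0.34 ± 0.24 for Prc1, −0.22 ± 0.13 for Hmmr, −0.42 ± 0.14 for Dlgap5 and −0.32 ± 0.19 for Ckap2 (adjusted p from 0.18 to 0.43).

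**Figure D4:**
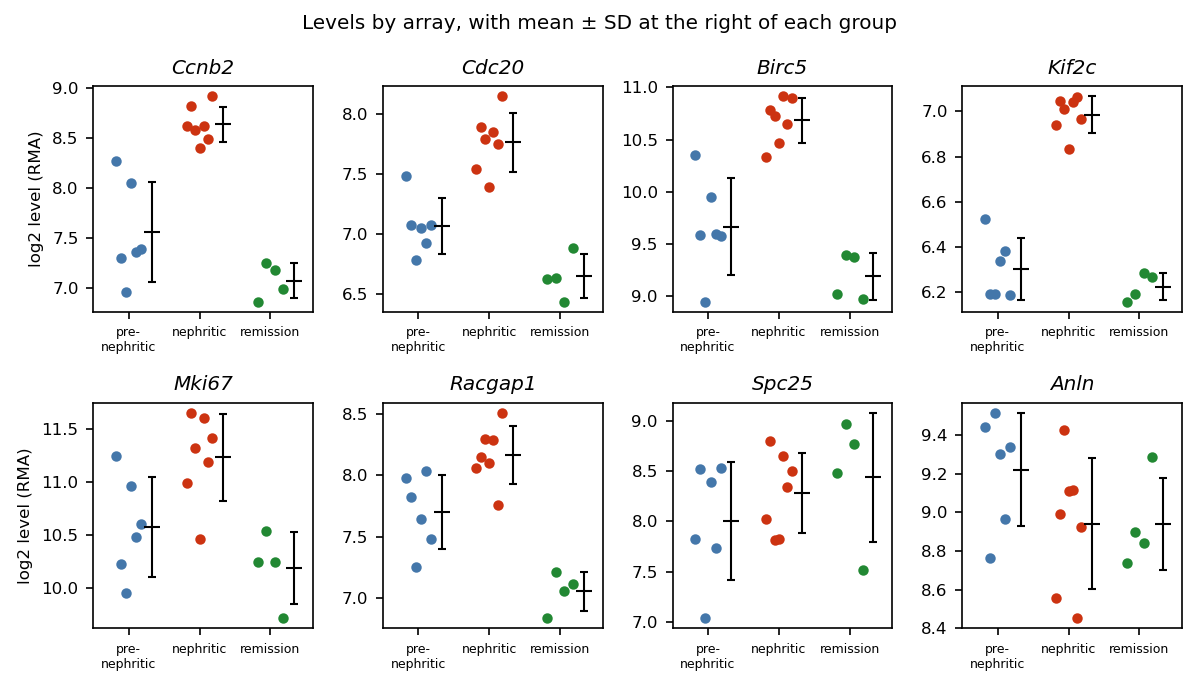
Log2 level of 8 members on each array, by group, with the group mean ± SD (n = 6, 7 and 4) beside the points. Nephritic arrays of Ccnb2 and Kif2c lie above all others, whereas for Spc25 and Anln the groups overlap.

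Of the 3 cytokinesis genes 1, Racgap1, rose in nephritis and was lower in remission. Racgap1 encodes the GTPase-activating protein that works with MKLP1 at the midzone. It ran from 7.25 through 7.73 to 8.04 on prenephritic and from 7.76 through 8.15 to 8.51 on nephritic arrays, and stood at 6.83, 7.21, 7.06 and 7.11 in remission, below all other arrays. The differences were 0.47 ± 0.13 (adjusted p = 0.030), −1.12 ± 0.15 (adjusted p = 0.00022) and, between remission and prenephritic, −0.65 ± 0.15, the smallest p of the list in that comparison (unadjusted 0.00061, adjusted p = 0.13).

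Ect2, the RhoA exchange factor gene that starts the cleavage furrow, had values of 8.18, 8.43 and 9.08 on prenephritic and 8.33, 8.72 and 9.04 on nephritic arrays, and 7.93, 8.54, 8.38 and 8.03 in remission. All 3 groups overlapped (0.21 ± 0.16 and −0.51 ± 0.18, adjusted p = 0.45 and 0.067). Anln, the anillin gene, whose product scaffolds the contractile ring, was the only member with a lower nephritic mean (−0.28 ± 0.16, adjusted p = 0.29). It ran from 8.76 through 9.32 to 9.52 on prenephritic and from 8.45 through 8.99 to 9.43 on nephritic arrays, and stood at 8.74, 8.90, 8.84 and 9.28 in remission. All groups overlapped, its nephritic and remission means were both 8.94, and nephritic replicates 6 (8.45) and 1 (8.56) were its lowest arrays. Anln was picked out after its values were seen. Of the cytokinesis genes, none passed between remission and prenephritic arrays, with differences of −0.30 ± 0.18 for Ect2 and −0.28 ± 0.19 for Anln (adjusted p from 0.37 to 0.40).

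Condensin and chromosome structure genes rose in 2 of 6 members, Ncapd2 and Top2a, and 5 of 6 were lower in remission. Ncapd2, a regulatory subunit gene of condensin I, had values of 7.77, 8.10 and 8.58 on prenephritic and 8.33, 8.74 and 8.97 on nephritic arrays, and 7.63, 7.62, 7.58 and 7.71 in remission. The remission arrays were tightly grouped below all others (0.53 ± 0.12, adjusted p = 0.0078 in nephritis, and −1.03 ± 0.14, adjusted p = 0.00022 in remission). Ncaph, its partner subunit gene, was 0.39 ± 0.15 higher in nephritis without passing (adjusted p = 0.10).

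The core ATPases of condensin moved little. Smc4 ran from 10.18 through 10.43 to 10.78 on prenephritic and from 10.29 through 10.46 to 10.63 on nephritic arrays (0.03 ± 0.09, adjusted p = 0.89), and stood at 10.04, 10.14, 10.26 and 10.17 in remission, lower than the nephritic level by 0.32 ± 0.10 (adjusted p = 0.037). Smc2 differed by 0.12 ± 0.13 and −0.44 ± 0.15 (adjusted p = 0.63 and 0.057). SMC2 and SMC4 are also part of condensin II, whose own subunits were on the list of other mitosis genes.

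Top2a, the topoisomerase gene of proliferating cells, had values of 7.96, 8.48 and 9.37 on prenephritic and 8.84, 9.27 and 9.52 on nephritic arrays, and 7.76, 8.17, 7.93 and 8.06 in remission. Prenephritic replicate 1 lay inside the nephritic range. It rose by 0.68 ± 0.18 (adjusted p = 0.019) and was lower by 1.23 ± 0.20 in remission (adjusted p = 0.00089). Mki67, the gene of the proliferation marker Ki-67, ran from 9.96 through 10.54 to 11.24 and from 10.46 through 11.32 to 11.65, with nephritic replicates 1, 4 and 6 inside the prenephritic range, and stood at 10.25, 10.54, 10.25 and 9.72 in remission. Its difference in nephritis missed the threshold (0.65 ± 0.22, adjusted p = 0.062), and that in remission was −1.05 ± 0.25 (adjusted p = 0.010). The nephritic and remission groups differed by −0.91 ± 0.17 for Ncaph (adjusted p = 0.0021). The remission minus prenephritic differences of chromosome structure genes, of which none passed, were −0.32 ± 0.15 for Smc2, −0.30 ± 0.10 for Smc4, −0.49 ± 0.14 for Ncapd2, −0.52 ± 0.17 for Ncaph, −0.55 ± 0.21 for Top2a and −0.39 ± 0.25 for Mki67 (adjusted p from 0.16 to 0.39).

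Foxm1, the transcription factor of the mitotic programme, had values of 6.16, 6.66 and 7.10 on prenephritic and 6.52, 7.11 and 7.27 on nephritic arrays, and 5.88, 6.12, 6.14 and 6.13 in remission. The prenephritic and nephritic arrays overlapped (0.43 ± 0.14, adjusted p = 0.066), and all 4 remission arrays lay below them (−0.94 ± 0.16 against nephritic, adjusted p = 0.0014, and −0.51 ± 0.17 against prenephritic, adjusted p = 0.19).

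The number of members above their own median differed from array to array, also within the groups. That median is taken over all arrays, so these counts follow in part from the differences between groups. Whether members varied together within a group was not tested. On nephritic arrays 2, 3, 5 and 7, between 44 and 46 of the 46 members lay above their own median over all arrays. On nephritic replicate 1 only 27 did, and on replicate 4, 38. Replicate 7 held the highest value of 19 members, and remission replicate 1 held the lowest value of 25. On each remission array at most 3 members were above their median.

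Genes of the same process outside the list were measured beside it. Of 97 other mitosis genes, 14 rose and 0 fell in nephritis, against 6.74% and 5.32% of all genes. With each array left out in turn 9 to 19 rose and 0 to 2 fell. In remission 46 were lower than in nephritis and 0 higher, against 10.0% and 3.27% of all genes. The median differences were 0.12 in nephritis and −0.43 from nephritis to remission. None of the 97 passed between remission and prenephritic arrays. The 14 included Cdc25c, which encodes a phosphatase that activates cyclin-dependent kinase 1 (0.72 ± 0.14), Cdca5, the sororin gene (0.67 ± 0.14), Tacc3, a spindle gene (0.60 ± 0.11), Iqgap3 (0.79 ± 0.16) and Cep55, the abscission gene (0.71 ± 0.19). None of the 12 subunits of the anaphase promoting complex rose, nor any of the 3 condensin II subunits or of the 5 genes of MuvB with B-MYB. As 6.74% of all genes rose, counts of 0 in lists this short do not set them apart. In remission 1 gene of each was lower than in nephritis, namely Anapc11, Ncapg2 and Mybl2. Of 10 cohesin genes and cohesin regulators 1 rose, Cdca5, and 2 were lower in remission than in nephritis, Wapl and Cdca5. These subgroups were formed after the values were seen. Many of these proteins have work outside mitosis as well, as cohesin has in chromatin folding.

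DNA synthesis precedes mitosis, and 23 of 25 of its listed genes were measured. Of these 3 rose in nephritis, namely the thymidine kinase gene Tk1 (1.66 ± 0.15), Rrm2 (0.67 ± 0.16) and Cdt1 (0.40 ± 0.11). With each array left out in turn 2 to 6 rose. In remission 16 were lower than in nephritis. The median differences were 0.15 in nephritis and −0.52 from nephritis to remission. The helicase genes Mcm2 to Mcm7 differed by 0.03 to 0.30 in nephritis and did not pass. Of 12 genes of the first gap phase, Ccne1, the cyclin E1 gene (0.80 ± 0.15), and Ccnd3 (0.51 ± 0.12) rose and Myc fell (by 0.56 ± 0.16), while 6 were lower in remission. Of 16 brakes of the cycle, Cdkn2a, which encodes p16 and ARF, rose (1.24 ± 0.29, adjusted p = 0.010), Ccng2, a cyclin gene of arrested cells, fell by 0.58 ± 0.10, and Cdkn1a, the p21 gene, was 0.71 ± 0.26 higher without passing (adjusted p = 0.089). Over all genes 6.74% rose and 5.32% fell in nephritis, and 10.0% were lower in remission than in nephritis. The counts of the brakes in nephritis, 1 higher and 1 lower of 16, lie near these shares. Whether the members' counts differ from those of these lists was not tested.

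Markers of other cells moved with the groups as well. Of 13 measured B and plasma cell genes, 7 rose and 2 fell in nephritis, 5 were lower and 1 higher in remission than in nephritis, and the mean log2 level of the list ran from 7.21 to 8.30 on prenephritic, 8.29 to 9.16 on nephritic and 7.63 to 8.08 on remission arrays. The largest rises were those of Ighg1 (4.73 ± 0.82), Jchain (2.76 ± 0.52), Pou2af1 (2.34 ± 0.46) and Mzb1 (1.95 ± 0.32). The greatest rise of a mitosis member was 1.13. The 2 that fell were Tnfrsf17 (by 1.73 ± 0.26) and Irf4 (by 0.67 ± 0.15). The B cell gene Ms4a1 and the plasma cell gene Pou2af1 lay below the lower quartile in the prenephritic and remission means. The nephritic group was the highest on this list's centred mean, as on that of the mitosis genes. The remission mean was above the prenephritic one on this list (−0.25 against −0.42) and below it on the mitosis genes (−0.57 against −0.13). The centred means of the B and plasma cell genes and of the mitosis genes were 0.58 and 0.58 on nephritic replicate 2, 0.55 and 0.63 on nephritic replicate 5 and −0.68 and −0.54 on prenephritic replicate 3. They were 1.05 and 0.13 on nephritic replicate 1 and −0.31 and 0.40 on prenephritic replicate 1. On remission arrays 1 to 4 they were −0.04 and −0.72, −0.48 and −0.39, −0.43 and −0.48, and −0.06 and −0.67. With the B and plasma cell score as a covariate the median difference in nephritis stayed at 0.63, but its median standard error went from 0.16 to 0.29 and 1 member passed, Kif2c (0.57, adjusted p = 0.017), against 0.634% of all genes. In the same fit 20 members were lower in remission than in nephritis (1.38% of all genes), with a median of −1.06. The part of these cells in the result was not tested beyond this fit.

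**Figure D5:**
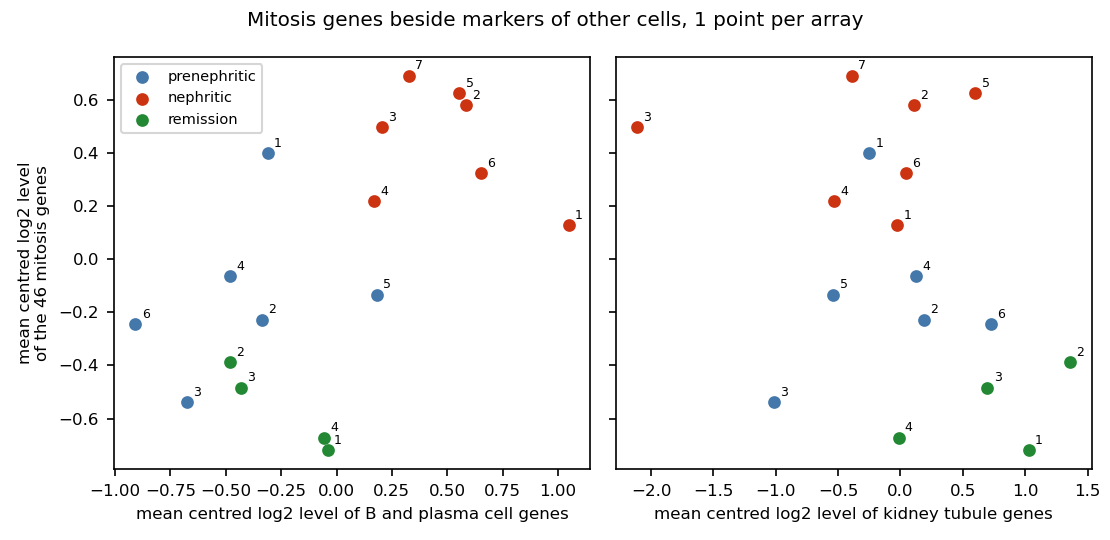
Mean centred log2 level of the 46 mitosis genes on each array (y axis) against that of 13 B and plasma cell genes (left) and 29 kidney tubule genes (right); colours give the group and numbers the replicate. Nephritic arrays are the highest as a group on both axes of the left panel, where nephritic replicate 1 lies at 1.05 on the x axis and 0.13 on the y axis.

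Other cell types were covered by shorter lists. Of 8 T cell genes 3 rose and 1 fell in nephritis, and 4 were lower and 1 higher in remission than in nephritis. Every remission array lay below every nephritic one in 4 T cell, 4 B and plasma cell and 2 NK cell genes, against 6.95% of all genes. The mean log2 level of the T cell list ran from 5.30 to 5.66, 5.42 to 5.90 and 5.28 to 5.51 on prenephritic, nephritic and remission arrays. Cd8a and Cd8b1 lay below the lower quartile in all group means. Cd3g did in the prenephritic and remission means, Cd3d in the remission mean and Cd28 in the nephritic mean. Of 8 monocyte genes, Ccr2 (0.40 ± 0.10) and Plac8 (0.86 ± 0.21) rose and none fell, and 2 of the 8 were lower in remission than in nephritis. The list's mean ran from 7.07 to 8.65, 7.36 to 7.91 and 6.96 to 8.08. None of 8 granulocyte precursor genes and none of 4 erythroid genes passed in nephritis, 1 erythroid gene was higher in remission than in nephritis, and the mean of the granulocyte list ran from 4.25 to 4.89 over all arrays. Of 5 dendritic cell genes 1 rose and 2 fell in nephritis and 2 were lower in remission than in nephritis, and their mean ran from 4.82 to 7.68, 5.18 to 6.74 and 4.41 to 5.83. In nephritis 1 of 8 NK cell genes fell, 1 of 8 endothelial genes rose, and 2 of 9 fibroblast and mesangial genes rose and 1 fell. From nephritis to remission 3 of the 8 NK cell genes were lower, 1 endothelial gene was lower and 1 higher, and 2 fibroblast and mesangial genes were lower and 1 higher. Over all genes 6.74% were higher and 5.32% lower in nephritis, and 3.27% were higher and 10.0% lower in remission than in nephritis. The part of all these cells in the result was not tested.

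Of 29 kidney tubule genes, 5 passed as higher in remission than in nephritis (1 of 15 proximal and 4 of 14 distal), and 0 passed in the other comparisons. All 15 proximal and all 14 distal genes had a higher mean in remission than in nephritis, with median differences of 1.10 and 1.08. All of them were also higher in remission than in prenephritic samples, with medians of 0.87 and 0.93. The mean centred level of the 29 ran from −1.01 to 0.72 on prenephritic, −2.11 to 0.60 on nephritic and −0.02 to 1.36 on remission arrays. With this tubule score as a covariate, 33 members were higher in nephritis (8.71% of all genes) and 40 lower in remission (5.27% of all genes). Without it 32 and 41 were. The median differences with the score were 0.62 and −1.13. The part of tubule RNA in the result was not tested beyond these fits.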

How the data were processed

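RNA of F4/80hi kidney cells was labelled and hybridised to Affymetrix arrays, 1 per sample, per the labels' protocols. The authors deposited log2 values made by RMA (background correction, quantile normalization and probe summary), per the submitters' processing notes. The version, the probe definition of the array and the annotation build are not given in the sources used. Each probe set is keyed by an Entrez identifier. Without 64 control sets and 695 sets lacking a symbol, 15780 of the 16539 probe sets were tested, 1 per gene, with no filter on level. Array medians ran from 7.49 to 7.68, and the number of arrays limits the precision.

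Group means were estimated from all 17 arrays with limma 3.58.1 in R 4.3.3 (14 residual degrees of freedom). Tests were two-sided and adjusted by Benjamini-Hochberg over all 15780 genes, with a threshold of 0.05. The fit was tested on simulated data, in which genes varied independently of each other. That test does not cover shifts of many members on a single array. The members, lists, marker genes and alternatives were chosen with earlier results of these data known. The differences of each measured member are given; values by array are given for the members of each role with the smallest and the largest p in nephritis and the smallest p between remission and prenephritic, and for Mki67, Top2a, Cdk1, Ccnb2 and Foxm1. Scores are means of log2 values centred on each gene's mean over all arrays. Replicate numbers were not taken to pair samples. Of 14 pairs of arrays with the same replicate number, 8 had deviations from the group means that correlated above 0.1. Over all 14 pairs the correlations ran from −0.26 to 0.80. Arrays with different numbers were not correlated, so whether the numbers mark pairs or a shared run was not tested. Promoter windows came from a RefSeq table of GRCm38.p6.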

Additional observations from a re-analysis of the deposited data

Results flagged for a closer look

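Dixon's test, which chance alone passes in about 1 of 20 groups, was applied to the 46 members and their mean in each group, 141 groups in all, and marked 5 values, on 2 arrays, as far from the others of their group. Prenephritic replicate 1 was the highest of its group for Bub1b (log2 level 8.13, the next 7.39), Cenpa (8.64, the next 8.16) and Cenpe (7.73, the next 7.12). Remission replicate 1 was the lowest of its group for Melk (6.78, the next 7.10) and Foxm1 (5.88, the next 6.12).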

How the results depend on the processing

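The direction of the members' median difference was the same under every alternative run, and none of the single members that passed turned. In nephritis the count of 32 higher members became 16 with the replicate number as a block, 1 with the B and plasma cell score as a covariate, 20 without prenephritic replicate 5 and nephritic replicate 6, 16 without the 3 arrays whose tubule score lay farthest from the median of all arrays and 14 at an adjusted p of 0.01. Leaving out each array in turn gave 20 to 37. Among the alternatives, the share of all genes was computed only for the fits with array weights or a cell score. In nephritis the median standard error of the members was 0.16 in the main fit. It was 0.29 with the B and plasma cell score and 0.18 with the replicate block. The median difference was 0.62, 0.63 and 0.58 in these fits. The cause of the changes in count was not tested. In remission the count of 41 lower members became 20 with that score and ran from 39 to 43 over single arrays. Between remission and prenephritic the count of 0 lower members became 5 with array weights and 1 with the replicate block (Racgap1), and ran from 0 to 1 over single arrays, with Racgap1 passing without prenephritic replicate 6. Dim genes, repeated quantile normalization, array medians, the variance prior, fitting only the groups compared, a 1.5-fold minimum and the tubule score kept each of these counts within 1.5 times. The 0 counts in the opposite directions stayed at 0.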
